A study of Mus musculus with 2 samples.

Results

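Light chains of the IGKV9 and IGKV14 families were examined in single B cells from the Peyer's patches of mice. A cell was a barcode with exactly 1 productive heavy-chain CDR3, and its light chain was the productive chain with the most unique molecular identifiers (UMIs, which count transcripts). The 2 families were represented by 8 V genes, IGKV9-120, IGKV9-123, IGKV9-124 and IGKV9-129 together with IGKV14-100, IGKV14-111, IGKV14-126 and IGKV14-130, out of 88 IGKV genes seen. They were the light chain of 805 of the 5879 kappa cells, of which 237 were in the Cre+ library and 568 in the Cre- library. In the Cre- library 388 of the 568 came from cells that join the heavy genes IGHV4-1 and IGHJ3, and all 388 carried 1 and the same heavy CDR3. Whatever their light chain, 422 Cre- and 6 Cre+ cells joined these 2 heavy genes. Values are therefore given with and without the IGHV4-1 plus IGHJ3 cells. Without them 417 cells remained, 237 Cre+ and 180 Cre-, beside 5058 other kappa cells. No other heavy lineage was left out, and the 5058 came from 4797 lineages. In the Cre+ library 126 of 2870 other kappa cells (4.39%) used IGHV5-17. The switched (IgA or IgG) share of Cre+ other kappa cells was 11.2% by cell and 7.63% with each lineage counted once. Differences by cell from other kappa cells carry that weighting.

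The Cre+ library came from adult female H2-Ab1 fl/fl mice positive for Villin:Cre, in which a recombinase driven by the Villin promoter removes the MHC class II beta chain gene from intestinal epithelium. The Cre- library came from adult female H2-Ab1 fl/fl mice negative for Villin:Cre, so the floxed allele was shared by both genotypes. Cells were enriched for CD45, a protein of white blood cells, and 4 mice were pooled into 1 library per genotype, which leaves no replicate and no test between genotypes. The Cre+ library held 355258 UMIs in 3748 barcodes and the Cre- library 355985 UMIs in 3245 barcodes. The libraries shared 10 barcodes; 2 of the IGKV9 and IGKV14 cells carried such a barcode and 0 barcodes did so in both libraries. Intervals are exact 95% ones (Clopper-Pearson); they cover the error of counting and nothing else, and cells of 1 lineage are not independent draws.

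A kappa light chain is made when a developing B cell joins a V gene to a J gene. The CDR3 spans that joint and lies in the antigen-binding site. In the germinal centres of Peyer's patches, activated B cells mutate these genes and switch from IgM and IgD to IgA or IgG, so a joint as first made is mostly seen in unswitched cells and an altered one in switched cells.

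All 8 V genes were found in the RefSeq gene table of GRCm38.p6 on chromosome 6. IGKV14-130 lies at chr6:67791046-67791511, IGKV9-129 at chr6:67839793-67840266, IGKV14-126 at chr6:67896177-67896642, IGKV9-124 at chr6:67942076-67942540, IGKV9-123 at chr6:67954230-67954690, IGKV9-120 at chr6:68049983-68050454, IGKV14-111 at chr6:68256404-68256869 and IGKV14-100 at chr6:68519012-68519477. The genes of the 2 families are interspersed over 728 kb, and they lie between 2203 and 2931 kb from the start of Igkj1. IGKV14-126 is annotated there as a pseudogene V segment, yet it was the main productive light chain of 25 cells.

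The start of the CDR3, 21 bases (7 codons) encoded by the V gene, is the yardstick for mutation further on. The most common such sequence among unswitched cells is shown in lower case for each gene.
IGKV9-120: tgtctacaatatgctagttct
IGKV9-129: tgtctacaatatgctagttct
IGKV9-124: tgtctacaatatgctagttat
IGKV9-123: tgtctacagcgtaatgcgtat
IGKV14-111: tgtctacagtatgatgagttt
IGKV14-130: tgtctacagttttatgagttt
IGKV14-100: tgtgtacagtatgctcagttt
IGKV14-126: tgtctacagcatggtgagagc
IGKV9-120 and IGKV9-129 had the same start, and IGKV9-124 differed from them at 1 base. IGKV9-123 differed from IGKV9-120 at 9 bases and from IGKV9-124 at 8. IGKV14-111 differed from IGKV14-130 at 2 bases, from IGKV14-100 at 3 and from IGKV14-126 at 5. The name IGKV9-124 was not always matched by this start, since 3 of 47 cells so named carried the IGKV9-123 start; all 3 were in the Cre+ library, and the V name of these cells is uncertain.

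Without the IGHV4-1 plus IGHJ3 cells, the share of neither family differed between the libraries by more than counting error. IGKV9 genes were the light chain of 113 of 3107 Cre+ kappa cells (3.64%, interval 3.01 to 4.36), beside 84 of 2368 Cre- kappa cells (3.55%, 2.84 to 4.37), a difference of 0.0897 points (-0.949 to 1.10). IGKV14 genes were the light chain of 124 Cre+ cells (3.99%, 3.33 to 4.74) and 96 Cre- cells (4.05%, 3.30 to 4.93), a difference of -0.0631 points (-1.16 to 1.0). With the IGHV4-1 plus IGHJ3 cells, the IGKV9 share was 3.63% in the Cre+ library against 17.1% in the Cre- library, and the IGKV14 share was 3.98% against 3.47%. That IgA lineage thus carried 385 of the 389 IGKV9-123 cells and 3 of the 18 IGKV9-124 cells of the Cre- library.

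2 genes made up most of the remaining cells. IGKV14-111 was used by 81 Cre+ cells (2.61%, 2.08 to 3.23) and 67 Cre- cells (2.83%, 2.20 to 3.58), and IGKV9-120 by 75 Cre+ cells (2.41%, 1.90 to 3.02) and 63 Cre- cells (2.66%, 2.05 to 3.39). IGKV9-124 was used by 32 Cre+ cells (1.03%, 0.706 to 1.45) and 15 Cre- cells (0.633%, 0.355 to 1.04), and IGKV14-100 by 23 Cre+ cells (0.740%) and 14 Cre- cells (0.591%). IGKV14-126 was used by 10 Cre+ cells (0.322%, 0.154 to 0.591) and 15 Cre- cells (0.633%, 0.355 to 1.04). IGKV9-123 had 4 cells in each library outside the IgA lineage, and IGKV9-129 had 2 in each.

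A gene counted as differing between libraries where its shares stood at a ratio of 1.5 or more and their intervals did not overlap. Among IGKV genes with 20 or more kappa cells, 1.64% did so without the IGHV4-1 plus IGHJ3 cells (1 of 61) and none of the 5 IGKV9 and IGKV14 genes of that size was among them. With those cells 3.23% did so (2 of 62), and IGKV9-123 was the 1 called of 6 genes here. IGKV14-130 was too rare for that count. It was the main light chain of 10 Cre+ cells (0.322%, 0.154 to 0.591), and of 0 among 2368 in the Cre- library. A count of 0 there allows a share of up to 0.127% by 3 cells and up to 0.156% by the exact interval. The Cre+ interval overlaps this only from 0.154% to 0.156%. The difference was 0.322 points, with an interval that left out 0 (0.0933 to 0.591). With 1 library per genotype its cause was not tested. The gene was not absent from the Cre- library, where 2 cells carried it as a second light chain, as did 2 in the Cre+ library.

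**Figure D1:**
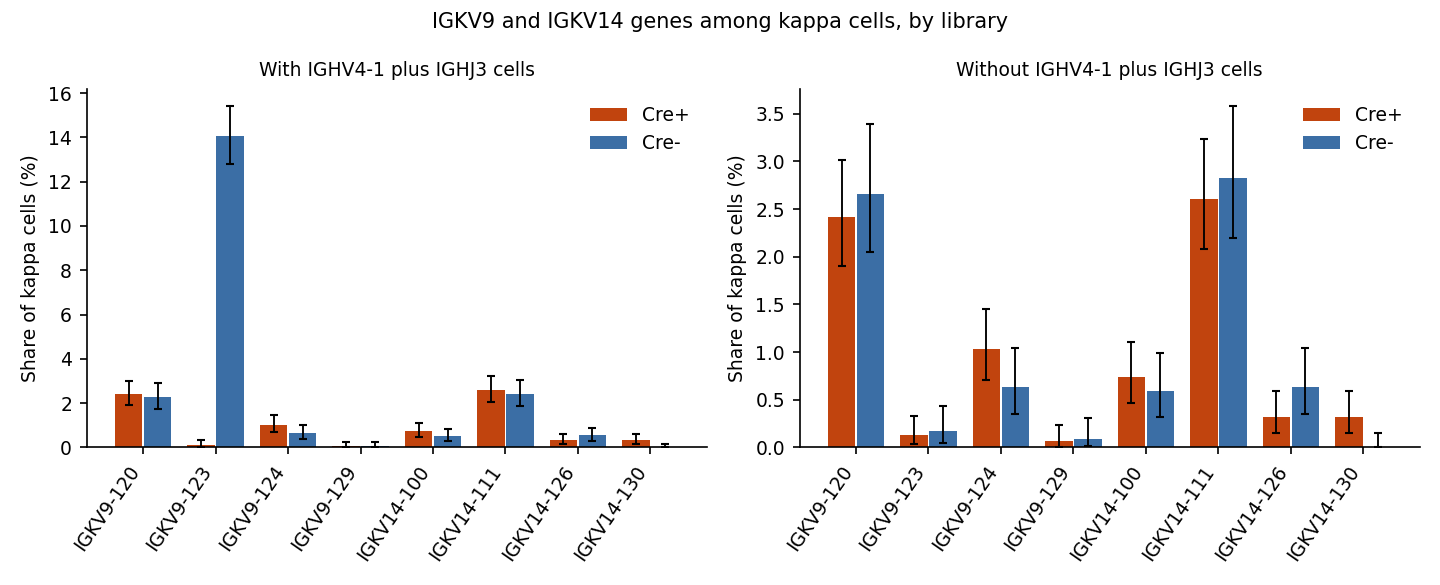
Share of kappa cells (%) whose main light chain is each of the 8 genes, Cre+ in orange and Cre- in blue, with exact 95% intervals; the left panel includes the IGHV4-1 plus IGHJ3 cells and the right panel leaves them out, on different vertical scales. The tall Cre- bar of IGKV9-123 (14.1%) on the left is 0.169% on the right. The intervals of the 2 libraries overlap for every gene on the right, for IGKV14-130 only from 0.154% to 0.156%.

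IGKV14-111 joined IGKJ2 more often than other kappa chains did. Of its 148 cells, 78 joined IGKJ2 (52.7%, 44.3 to 61.0) against 31.0% of other kappa cells, 21.7 points more (13.2 to 30.0). The excess was present in both libraries, with IGKJ2 in 54.3% of its Cre+ cells and 50.7% of its Cre- cells. IGKJ1 and IGKJ4 were less used by IGKV14-111, in 14.9% and 4.73% of cells against 29.3% and 13.8% of other kappa cells; a lower IGKJ1 share with separate intervals was found in 36.1% of IGKV genes (22 of 61). Set against all other kappa cells, 9.84% of the IGKV genes with 20 or more cells had a higher IGKJ2 share with separate intervals (6 of 61), and IGKV14-111 ranked 3 of 61 in IGKJ2 share, where the median gene had 31.2%. The excess was 20.6 points with each lineage counted once and 19.9 points among unswitched cells.

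The other genes differed among themselves. Pooled over libraries, IGKV9-124 favoured IGKJ1, in 24 of 47 cells (51.1%, 36.1 to 65.9), 21.8 points above other kappa cells (6.71 to 36.7); a higher IGKJ1 share with separate intervals was found in 21.3% of IGKV genes (13 of 61), so such a shift is common. The IGKV9-124 excess was 38.5 points in the Cre- library (10 of 15 cells, 10.1 to 60.1). In the Cre+ library it was 13.6 points (14 of 32 cells) and its interval included 0 (-3.86 to 32.3). IGKV14-100 joined IGKJ1 in 17 of 37 cells (45.9%) and IGKJ5 in 3 (8.11%, 1.70 to 21.9, against 25.9% of other kappa cells). The IGKJ5 count was 1 of 23 cells in the Cre+ library and 2 of 14 in the Cre- library. In the latter the difference of -11.7 points had an interval that included 0 (-24.3 to 16.9). How many IGKV genes have a low IGKJ5 share was not counted. IGKV9-120 joined IGKJ1 in 25.4%, IGKJ2 in 37.0%, IGKJ4 in 15.2% and IGKJ5 in 22.5% of 138 cells, and each of its differences from other kappa cells had an interval that included 0. Over all 417 cells IGKJ2 was 9.99 points above other kappa cells (5.05 to 15.0), and without IGKV14-111 it was 3.55 points above (-2.26 to 9.70). All 388 IGHV4-1 plus IGHJ3 cells with an IGKV9 light chain joined IGKJ1.

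**Figure D2:**
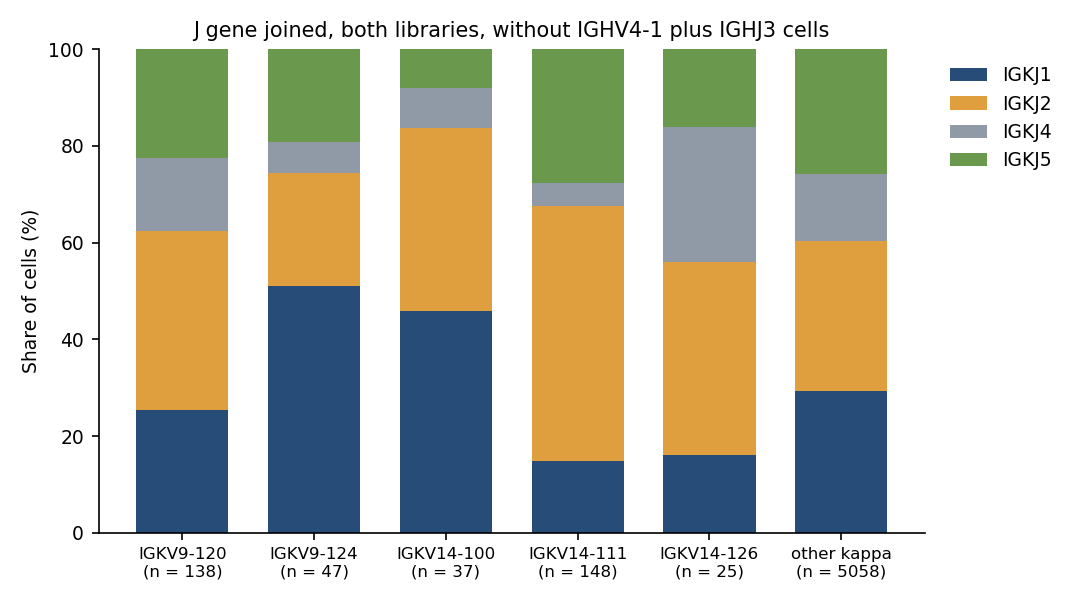
Share of cells (%) joining IGKJ1, IGKJ2, IGKJ4 or IGKJ5, stacked to 100%, for each IGKV9 or IGKV14 gene with 20 or more cells and for other kappa cells, both libraries pooled and the IGHV4-1 plus IGHJ3 cells left out. IGKJ2 fills 52.7% of the IGKV14-111 bar against 31.0% of the bar of other kappa cells.

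CDR3s of both families were uniform in length and repeated across the libraries. A CDR3 of 11 codons, counted from the conserved cysteine to the phenylalanine, was found in 399 of 417 cells (95.7%) against 90.5% of other kappa cells. Codon 8 was proline in 397 of the 399, against 98.6% of other kappa cells. Codon 9 was the usual residue of the J gene (tryptophan for IGKJ1, tyrosine for IGKJ2, phenylalanine for IGKJ4, leucine for IGKJ5) in 350 of the 399 (87.7%, 84.1 to 90.8) against 79.7% of other kappa cells (78.5 to 80.8).

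The most frequent CDR3 of each gene but IGKV9-129, which had 4 cells, is shown because these few sequences account for much of each gene's use; codon 9, where the V and J genes meet, is in capitals.
IGKV14-111 with IGKJ2: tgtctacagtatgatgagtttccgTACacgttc
IGKV9-120 with IGKJ2: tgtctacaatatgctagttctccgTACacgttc
IGKV9-124 with IGKJ1: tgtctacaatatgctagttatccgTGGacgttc
IGKV14-100 with IGKJ2: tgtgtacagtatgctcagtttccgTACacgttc
IGKV14-126 with IGKJ2: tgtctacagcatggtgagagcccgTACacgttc
IGKV9-123 with IGKJ2: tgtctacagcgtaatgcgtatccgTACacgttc
IGKV14-130 with IGKJ2: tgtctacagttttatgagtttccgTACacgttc
IGHV4-1 plus IGHJ3 lineage, IGKV9-123 with IGKJ1: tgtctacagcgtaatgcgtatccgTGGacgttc
The IGKV14-111 sequence was found in 29 Cre+ and 25 Cre- cells, and the IGKV9-120 sequence in 22 Cre+ and 20 Cre- cells. The IGKV9-124 sequence had 7 Cre+ and 5 Cre- cells, the IGKV14-100 sequence likewise 7 and 5, the IGKV14-126 sequence 3 and 3, and the IGKV9-123 sequence 2 and 2. The IGKV14-130 sequence had 3 Cre+ cells. The 4 most frequent CDR3s covered 113 of 138 IGKV9-120 cells (81.9%) and 100 of 148 IGKV14-111 cells (67.6%).

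Distinct pairs of V gene and CDR3 nucleotide sequence numbered 76 among Cre+ and 58 among Cre- cells, and 33 occurred in both (43.4% of the Cre+ and 56.9% of the Cre- sequences). These 33 were carried by 76.4% of the Cre+ cells (70.4 to 81.6) and 82.8% of the Cre- cells (76.5 to 88.0), beside 80.8% and 83.3% of other kappa cells. IGKV9-120 was the most repetitive of the frequent genes, with shared sequences in 94.7% of its Cre+ and 90.5% of its Cre- cells.

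The light CDR3 of the expanded IgA lineage was itself such a recurrent joint. The same 33 bases were the main light chain of 2 Cre+ cells, with 38 and 36 UMIs (the second under the name IGKV9-124), and of 1 Cre- cell outside the lineage, with 49 UMIs, all with other heavy chains. In the Cre- library the sequence was also the second light chain of 10 cells outside the lineage, at 1 to 5 UMIs each. In these 10 cells stray RNA from the lineage and a true second chain cannot be told apart.

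Counted by cell and pooled over libraries, the switched share, that of IgA or IgG cells, was above other kappa cells in IGKV14 and below them in IGKV9. Over both families and without the IGHV4-1 plus IGHJ3 cells, 47 of the 413 cells with a called isotype were switched (11.4%, 8.48 to 14.8) against 10.7% of other kappa cells, a difference of 0.637 points (-2.39 to 4.20). IGKV14 cells were switched in 37 of 218 cases (17%, 6.23 points above other kappa cells, 1.42 to 11.9). IGKV9 cells were switched in 10 of 195 (5.13%, a difference of -5.61 points, -8.40 to -1.43). By library, 8 switched IGKV9 cells stood beside 103 unswitched ones in Cre+, and 2 beside 82 in Cre-. For IGKV14 it was 22 beside 101 in Cre+ and 15 beside 80 in Cre-. No interval within 1 library is given for either family. With each lineage counted once, only 8.25% of other kappa cells were switched, whereas the 197 IGKV9 cells were of 197 lineages. The IGKV9 gap is therefore narrower by lineage, and no interval by lineage is given for either family. All 388 IGHV4-1 plus IGHJ3 cells with an IGKV9 light chain were IgA.

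IGKV14-111 had 17 switched cells among 80 in the Cre+ library (21.2%, 12.9 to 31.8), against 10 among 66 in the Cre- library (15.2%, 7.51 to 26.1), and 18 of the 27 were IgA. Pooled over libraries its share was 18.5%, 7.75 points above other kappa cells (1.75 to 15.1), and it ranked 4 of 61 genes; 6.56% of the IGKV genes had a higher switched share than the rest with separate intervals (4 of 61). Within the Cre- library alone the difference was 5.01 points and its interval included 0 (-2.74 to 16.0).

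IGKV9-120 had 4 switched cells among 74 in the Cre+ library (5.41%, 1.49 to 13.3), against 1 among 63 in the Cre- library (1.59%, 0.0402 to 8.53). Pooled over libraries its share was 3.65%, 7.09 points below other kappa cells (-9.70 to -2.36), and 1 of its 137 cells was IgA; 9.84% of the IGKV genes had a lower switched share with separate intervals (6 of 61). Within the Cre+ library alone the difference was -5.80 points and its interval included 0 (-9.90 to 2.14), as it did over both libraries with each lineage counted once (-4.60 points, -7.18 to 0.126). Among the rarer genes, IGKV14-100 was switched in 6 of 37 cells, IGKV9-124 in 5 of 46, IGKV14-126 in 3 of 25, all IgA and in the Cre- library, and IGKV14-130 in 1 of 10. IGKV9-123 outside the lineage and IGKV9-129 were unswitched in all 8 and all 4 cells.

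**Figure D3:**
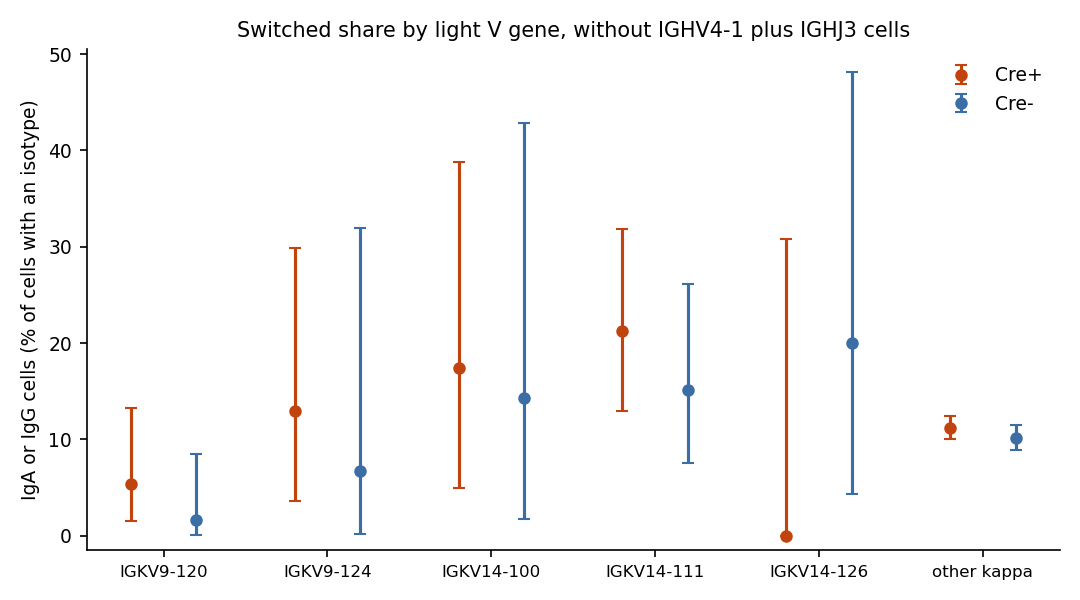
Share of cells (%) of IgA or IgG isotype for each IGKV9 or IGKV14 gene with 20 or more cells and for other kappa cells, Cre+ in orange and Cre- in blue, IGHV4-1 plus IGHJ3 cells left out; bars are exact 95% intervals. IGKV9-120 is at 5.41% and 1.59% and IGKV14-111 at 21.2% and 15.2%, beside 11.2% and 10.1% for other kappa cells.

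Altered CDR3 starts were found mainly in switched cells. A mismatch was any difference from the gene's 21 bases shown above, in cells with an 11-codon CDR3; since the yardstick is the most common sequence in unswitched cells, a low share there is partly set by the definition. Mismatches were found in 26 of 42 switched cells (61.9%, 45.6 to 76.4) against 6 of 353 unswitched cells (1.70%, 0.626 to 3.66). Other kappa cells had 248 of 505 switched (49.1%, 44.7 to 53.6) and 96 of 4171 unswitched (2.30%). With each lineage counted once, the IGKV9 and IGKV14 shares were 22 of 38 switched (57.9%) and 6 of 352 unswitched.

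By isotype, 18 of 27 IgA cells (66.7%) and 8 of 15 IgG cells (53.3%) had a mismatch. By library, the share among switched cells was 48.0% for Cre+ (12 of 25, interval 27.8 to 68.7) and 82.4% for Cre- (14 of 17, 56.6 to 96.2). The intervals overlap, which does not show that the shares are alike, and the difference was not tested. The 14 Cre- cells include a lineage of 3 cells and lineages of 2, so they are not independent. The 3 IGKV9-124 cells with the IGKV9-123 start count as mismatched here, and without them the shares were 25 of 41 switched and 4 of 351 unswitched cells. IGKV9-120 had 0 of 129 unswitched cells with a mismatch and 2 of 5 switched. IGKV14-111 had 14 of 23 switched (60.9%) and 1 of 111 unswitched. In the IGHV4-1 plus IGHJ3 lineage, by contrast, 0 of the 385 IGKV9-123 cells had a mismatch, although all were IgA.

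**Figure D4:**
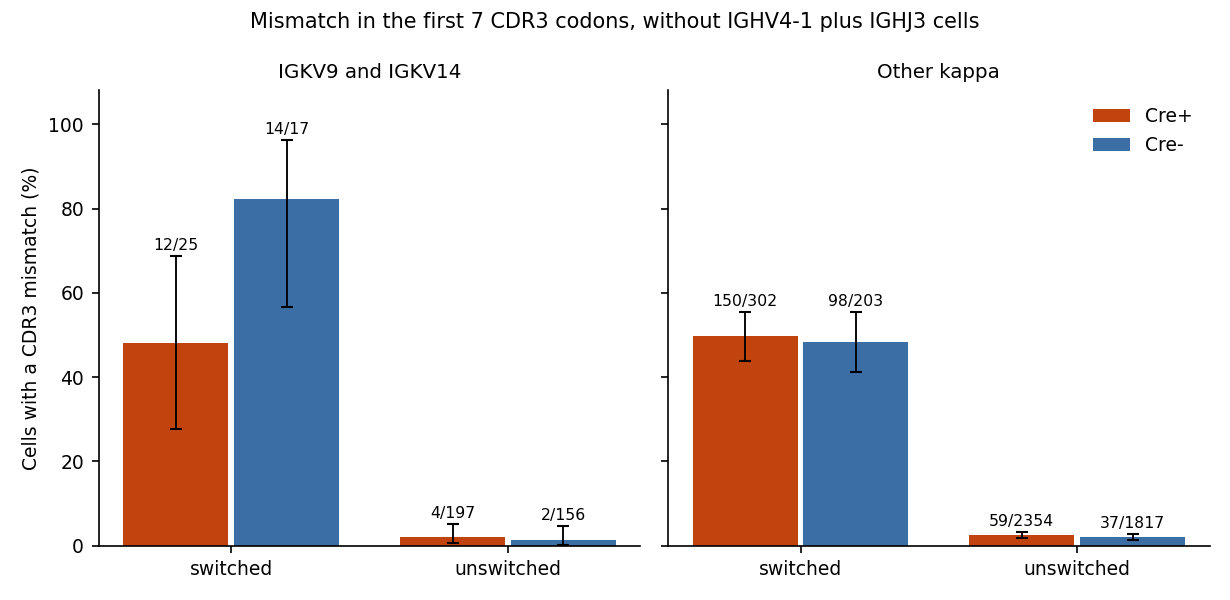
Share of cells (%) with any mismatch in the 21 CDR3 bases, for switched and unswitched cells, Cre+ in orange and Cre- in blue, IGHV4-1 plus IGHJ3 cells left out; bars are exact 95% intervals and the labels give mismatched over all cells. Switched IGKV9 and IGKV14 cells stand at 48.0% and 82.4% and unswitched ones at 2.03% and 1.28%, beside 49.7% and 48.3% of switched other kappa cells.

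The altered IGKV14-111 sequences came from 12 lineages and had 1 to 3 mismatches each. Position 18, counted from 1 at the first base of the CDR3 and the last base of codon 6, was changed in 9 of the 14 cells, in 9 lineages: to A in 6 cells (G18A), to T in 2 (G18T) and to C in 1 (G18C). Position 6 was changed in 5 cells of 3 lineages. Examples from both libraries are shown with the mismatched bases in capitals, each beside its heavy V gene.
Cre+ IgA, IGHV14-3 (A6C, G18A): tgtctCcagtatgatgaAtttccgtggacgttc
Cre+ IgA, IGHV1-63 (C4T, T15A, G18A): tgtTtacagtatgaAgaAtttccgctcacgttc
Cre+ IgA, IGHV5-4 (A6T, G9A, G18C): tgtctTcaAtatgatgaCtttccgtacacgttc
Cre- IgA, IGHV5-9-1 (G18T): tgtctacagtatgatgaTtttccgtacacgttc
Cre- IgG1, IGHV1-62-2 (G16C, T20C): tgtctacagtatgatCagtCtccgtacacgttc
G18A leaves the codon for glutamate unchanged, whereas G18T and G18C make it aspartate.

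Outside the IGHV4-1 plus IGHJ3 lineage the cells were nearly all unrelated by heavy chain. Cells of 1 library were put in the same lineage where IGHV, IGHJ and heavy CDR3 length matched and at least 85% of the CDR3 bases were identical. The 417 cells fell into 407 lineages, of which 399 had 1 such cell, 6 had 2, 2 had 3 and none had more. In 7 of the 8 lineages with several cells, all cells shared the light V gene, and in all 7 it was an IGKV14 gene.

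The largest Cre- lineage joined IGHV1-12 to IGHJ2 and had 3 IgA cells with 14, 19 and 22 heavy-chain UMIs, and with 65, 57 and 154 light-chain UMIs. All 3 carried IGKV14-111 with IGKJ2 and the changes A6G and A14G, the second of which turns codon 5 from aspartate to glycine, and 1 carried T12C as well.
Common form: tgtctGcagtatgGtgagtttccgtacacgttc
With T12C: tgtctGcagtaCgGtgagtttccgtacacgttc
A Cre- lineage of IGHV9-3 with IGHJ3 paired 2 IgA cells with IGKV14-126, the gene annotated as a pseudogene. They had 73 and 68 heavy-chain UMIs and 155 and 286 light-chain UMIs, among the highest of all 417 cells, and they differed in their light CDR3.
With C21T: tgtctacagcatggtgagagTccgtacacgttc
With G9A and C21G: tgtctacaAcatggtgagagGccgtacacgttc
A Cre- lineage of IGHV10-1 with IGHJ4 had 2 IgG1 cells with IGKV14-100, both with A6G and A11T.

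Shortened CDR3s were found in switched IGKV14 cells of the Cre+ library. A CDR3 of 8 codons or fewer was carried by 4 of 47 switched IGKV9 and IGKV14 cells (8.51%, 2.37 to 20.4) and 0 of 366 unswitched ones, against 2 of 541 switched other kappa cells (0.370%, 0.0448 to 1.33) and 2 of 4495 unswitched ones. The 4 cells came from 3 lineages, 3 with IGKV14-111 and 1 with IGKV14-100. In 2 lineages a mate with a full-length CDR3 was found, and the shorter sequence lacked 9 bases of the longer. The sequences are shown with 1 possible placement of the missing bases in capitals in the full-length mate.
IGHV9-3 with IGHJ3, IgA, IGKV14-100, full length: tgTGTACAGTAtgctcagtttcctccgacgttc
IGHV9-3 with IGHJ3, IgA, IGKV14-100, short: tgtgctcagtttcctccgacgttc
IGHV6-3 with IGHJ4, IgA, IGKV14-111, full length: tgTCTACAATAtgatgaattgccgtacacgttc
IGHV6-3 with IGHJ4, IgG2b, IGKV14-111, short: tgtgctgaatttccgtacacgttc
IGHV6-3 with IGHJ4, IgG2b, IGKV14-111, short: tgttctgaatttccgtacacgttc
The IGHV9-3 pair was otherwise identical over the CDR3, and the missing bases could be placed in 3 ways; its cells had 7 light-chain UMIs for the long and 3 for the short form. The IGHV6-3 short forms had 2 and 3 further mismatches to their mate and 19 and 85 light-chain UMIs. With few UMIs behind the IGHV9-3 pair, an assembly error was not tested.

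Heavy V partners were diverse, with 75 IGHV genes in the 417 cells and a median heavy CDR3 of 14 residues, as in other kappa cells. The 2 families leaned to different partners. IGKV9 cells used the large IGHV1 family in 148 of 197 cells (75.1%, 68.5 to 81.0), 12.1 points above other kappa cells (5.34 to 18.1). The difference was 11.5 points in the Cre+ library (2.27 to 19.5) and 12.9 in the Cre- library (2.20 to 21.8). How many other IGKV genes or families show such a shift was not counted. IGKV14 cells used it in 126 of 220 (57.3%), a difference of -5.74 points (-12.7 to 1.03). Pooled over libraries, they used IGHV6 in 19 (8.64%, 5.28 to 13.2) against 3.54% of other kappa cells. The IGHV6 difference was 7.14 points in the Cre+ library (13 of 124 cells, 2.30 to 13.9). In the Cre- library it was 2.46 points (6 of 96 cells, -1.56 to 9.36). The 13 Cre+ cells include an IGHV6-3 lineage of 3 cells and another of 2, so they are not independent. The commonest partners of IGKV9-120 were IGHV1-26 with 12 cells, IGHV1-82 with 9 and IGHV1-9 with 8. Those of IGKV9-124 were IGHV1-26 with 5 cells and IGHV1-64 and IGHV6-3 with 4 each. IGHV1-50 was used by 7 of 138 IGKV9-120 cells, 3.37 points above other kappa cells (0.337 to 8.48). In the Cre+ library it was 6 of 75 cells (8%, 2.99 to 16.6) against 1.74% of other kappa cells (1.30 to 2.29). In the Cre- library it was 1 of 63 cells (1.59%) against 1.65%. How many IGHV genes shift within 1 library was not counted. Pooled over libraries, none of 63 IGHV genes differed between IGKV9-120 and other kappa cells at a ratio of 1.5 or more with separate intervals.

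For IGKV14-111, by the same count, 3.17% of IGHV genes were higher (2 of 63) and 1.59% were lower (1 of 63). The higher ones were IGHV6-3, with 11 of 148 cells (7.43%, 3.77 to 12.9, against 2.33% of other kappa cells), and IGHV14-3, with 9 (6.08%, 2.82 to 11.2, against 1.05%). The intervals of IGHV6-3 overlapped with each lineage counted once (8 of 142, 2.46 to 10.8, against 1.85 to 2.70) and in unswitched cells (2.40 to 11.7 against 1.73 to 2.60), so that call was lost, whereas those of IGHV14-3 stayed apart in both. The lower one was IGHV1-26, with 2 cells (1.35%) against 6.56% of other kappa cells. The IGHV6-3 pairing was seen mainly in the Cre+ library, where it made up 12.3% of IGKV14-111 cells (10 of 81, 6.08 to 21.5) beside 2.09% of other kappa cells; in the Cre- library it made up 1.49% (1 of 67) beside 2.65%. With each lineage counted once it was 7 of 78 in the Cre+ library (8.97%) and 1 of 64 in the Cre- library. The IGHV14-3 pairing was seen in 7 of 81 Cre+ cells (8.64%) and 2 of 67 Cre- cells (2.99%), beside 0.662% and 1.55% of other kappa cells. The IGHV6-3 cells were of several kinds, with IGHJ1, IGHJ2, IGHJ3 and IGHJ4, with IGKJ1, IGKJ2 and IGKJ5, and with IgM, IgD, IgA and IgG2b.

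The IGHV4-1 plus IGHJ3 lineage had fewer light-chain transcripts per cell than the other cells with these genes. The 417 other cells had medians of 9 UMIs for the heavy and 36 for the light chain, with a median of 3.8 light-chain UMIs per heavy-chain UMI, beside 8 and 31 UMIs and 3.45 in other kappa cells. The 8 IGKV9-123 cells outside the lineage had 9 to 55 light-chain UMIs (median 35), whereas the 385 inside it had 1 to 17 (median 5) beside a median of 19 heavy-chain UMIs. The light contigs of the lineage were also shorter, 413 to 623 bases with a median of 497, against 642 and 661 bases for the same CDR3 under the same V name as main chain in a Cre+ and a Cre- cell with other heavy chains, and 499 bases in a Cre- barcode with 2 or more heavy chains. Outside the lineage, the 44 IGKV9-124 cells without the IGKV9-123 start had contigs of 497 to 672 bases (median 515), a range that overlaps that of the lineage. The 3 lineage cells called IGKV9-124 rested on 1 or 2 light-chain UMIs and contigs of 467 to 470 bases and carried the lineage's CDR3.

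Switched cells had more transcripts than unswitched ones, with medians of 55 and 35 light-chain UMIs, and the highest of all was a Cre+ IgG2b cell of IGHV6-3 with IGKV14-111, with 258 heavy-chain and 1134 light-chain UMIs. Among the genes, IGKV9-120 was at the high end, with a median of 43.5 light-chain UMIs (rank 8 of 71 genes with 10 or more cells, median gene 31). IGKV14-130 was near the bottom, with 7 to 31 UMIs and a median of 10 (rank 70 of 71), although its cells had a median of 9 heavy-chain UMIs like the rest.

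**Figure D5:**
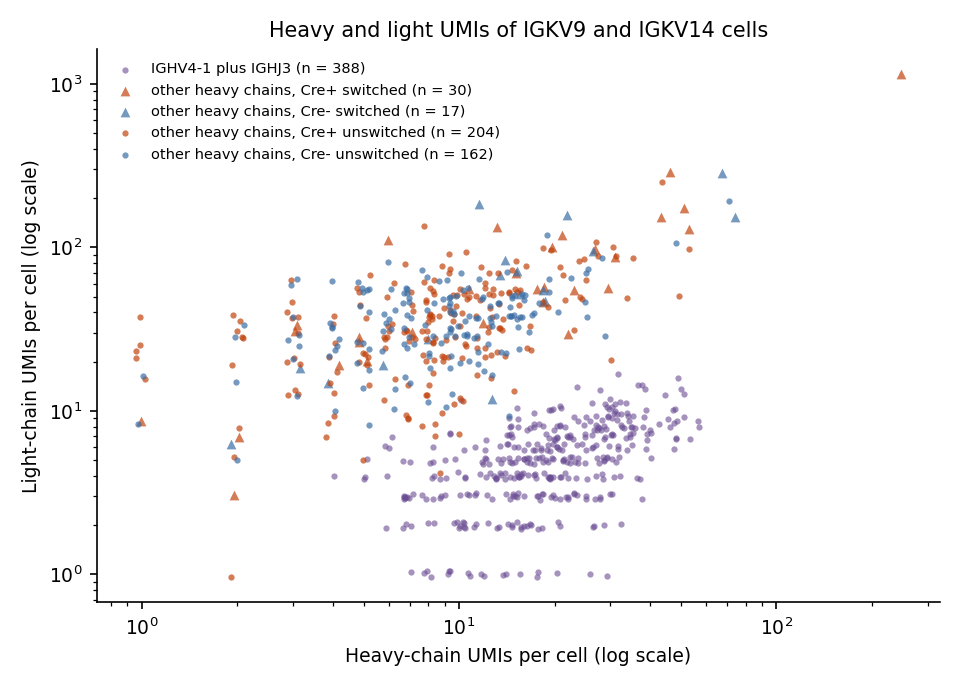
Heavy-chain against light-chain UMIs per cell, both on log scales and with slight jitter, for IGKV9 and IGKV14 cells; purple marks the IGHV4-1 plus IGHJ3 cells, orange and blue the other Cre+ and Cre- cells, triangles switched and circles unswitched cells. The purple cells lie at 1 to 17 light-chain UMIs, below most other cells of the same heavy-chain count.

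A second productive light chain was present in 39 of the 417 cells (9.35%, 6.74 to 12.6), beside 8.17% of other kappa cells. All 39 were unswitched: 0 of 47 switched cells had one, against 39 of 366 unswitched cells (10.7%). The 0 allows a share of up to 6.38% by 3 cells and up to 7.55% by the exact interval. Other kappa cells had a second chain in 5.73% of switched and 8.48% of unswitched cells. In 0 of the 39 did both chains have the same CDR3. The pseudogene-annotated IGKV14-126 had a second chain in 7 of 25 cells (28.0%, 12.1 to 49.4), where 3.28% of IGKV genes had a higher share with separate intervals (2 of 61), and IGKV9-129 had one in all 4 of its cells. None of the 37 IGKV14-100 cells had a second chain.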

How the data were processed

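Peyer's patch B cell receptor libraries, 1 per genotype, were analysed from contig tables that give, per the file headers, the V, J and constant gene, CDR3 and the counts of reads and UMIs of each contig, as deposited by the authors. Contigs were made with Cell Ranger on GRCm38, per the submitters' processing notes, which give no version. The genotype was taken from each sample's label: the series' design text gives Villin:Cre- for both groups, against those labels, and no table can check it. Counts were not normalised.

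Barcodes with exactly 1 productive heavy CDR3 were kept as cells, without a separate doublet caller. Isotype shares left out 3 Cre+ and 1 Cre- cell of IGKV9 and IGKV14, and 22 other kappa cells, with no constant gene called. Differences between shares have an interval combined from both exact intervals (Python 3.11.15, pandas 2.3.3, scipy 1.17.1). Clopper-Pearson intervals are at 95%, and where a limit is given for a count of 0, it is 3 cells of the total beside the exact one. There was no replicate and no test was made. The tables hold no V region sequence outside the CDR3, so mutation was read only there. The counting was checked on simulated cells, where 5 of 5 genes tripled in 1 library and 0 of 55 unchanged genes were called higher. Calls of unchanged genes as lower were not counted. The tripled genes were frequent ones and cells were drawn independently, so rarer genes and cells of 1 lineage were not covered.

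The genes and lists were chosen with earlier results of these data known. Named were all IGKV9 and IGKV14 genes, their J genes, their most frequent and shared CDR3s, up to 3 heavy partners each and lineages of 3 or more cells; other lineages, the IGHV1-26, IGHV14-3 and IGHV6-3 details, the short CDR3s and the second chains were picked after their values were seen. Coordinates are from RefSeq, GRCm38.p6. Clonotype tables were not used.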

Additional observations from a re-analysis of the deposited data

Results flagged for a closer look

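The switched share of IGKV9 and IGKV14 cells minus that of other kappa cells pointed in opposite directions in the 2 libraries, at 1.62 points in the Cre+ library and -0.640 points in the Cre- library, without the IGHV4-1 plus IGHJ3 cells. Both intervals included 0 (-2.56 to 6.72 and -4.73 to 4.78), and the difference between libraries was not tested. With each lineage counted once the values were 4.11 points in the Cre+ library, where the interval left out 0 (0.104 to 9.08), and -1.60 points in the Cre- library.

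The share of IGHV6-3 among IGKV14-111 cells minus that among other kappa cells was 10.3 points in the Cre+ library (3.96 to 19.5) and -1.16 points in the Cre- library (-2.80 to 5.42). With each lineage counted once the values were 7.0 and -1.03 points, and among unswitched cells 7.67 and -0.716 points. The difference between libraries was not tested, and 1 pooled library per genotype cannot separate genotype from library.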

How the results depend on the processing

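No paired analysis was possible because each genotype has 1 pooled library and the labels give no replicate numbers. Over 13 results, 77 alternative values lay within the interval of the main value, 7 lay outside it and 1 reversed. Among the 77, some still changed sign, size or side of 0: with each lineage counted once the switched-share difference was 4.11 points in the Cre+ library (main 1.62) and -4.60 for IGKV9-120 (main -7.09, now including 0); in the Cre- library it ran from -1.60 to 0.189; and the IGKJ1 difference was 1.22 in switched cells (main -3.40) and, in the Cre- library, -0.354 over every kappa contig (main -4.87). The IGKV9 share difference with the IGHV4-1 plus IGHJ3 cells, Cre+ minus Cre-, was -13.4 points; it was -11.8 with 3 or more light-chain UMIs, 0.124 with each lineage counted once, -0.108 in unswitched cells and -59.5 in switched cells. In switched cells alone the IGKV9 difference without those cells was 1.45 points, the IGKV14 difference with them was 3.91, the IGKJ1 difference in the Cre+ library was 6.67 and the IGKJ2 difference of IGKV14-111 was 34.9; the cause was not tested. Alternatives for IGKV14-111 and IGKV9-120 were added after the data were seen. The 47 switched cells limit every statement on mutation, and shares within genes of 10 or fewer cells have intervals too wide to rank.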
